A study of Mus musculus with 12 samples.

Results

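Actin filaments give a cell its moving edge, and 9 genes that build, branch, lengthen or anchor them at that edge were followed in mouse oligodendrocytes. The genes were chosen by name as mouse gene symbols, with earlier results of these data known. They were looked up in a table of 2398 genes through their Entrez Gene identifiers, and all 9 were present. The cells came from brains of C57BL/6 mice, and fluorescence-activated sorting kept those with the green Ndrg1-EGFP reporter that shut out propidium iodide, a dye of dead cells. Ndrg1 is expressed by oligodendrocytes that make myelin. Mice of the KO group had the genotype CnpCre/+;Lmnafl/fl, so that Cre recombinase was made from 1 allele of Cnp, a gene of the oligodendrocyte lineage, and could cut both alleles of Lmna, the gene of lamins A and C. Mice of the WT group had the genotype Cnp+/+;Lmnafl/fl, with the same floxed Lmna alleles and reporter but no Cre. The KO and WT groups therefore differ in Cre and in intact Cnp copies as well as in Lmna, and these differences cannot be told apart. The age is given as postnatal day 60 in one label and as 8 weeks in another. Each genotype had 3 biological replicates with 2 libraries each, 12 libraries in all. The sources used here do not say whether a replicate came from 1 animal or from pooled animals.

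The Arp2/3 complex binds the side of an existing actin filament and starts a new branch from it. The WAVE complex switches the Arp2/3 complex on at the membrane in answer to the small GTPase Rac, and proteins of the Ena/VASP family, brought to the membrane by lamellipodin, keep the filament ends growing. In the oligodendrocyte lineage, actin assembly drives the extension of processes and the first contact with axons, whereas the wrapping of myelin that follows is accompanied by actin disassembly. Marcks binds membrane phosphoinositides and actin, and Csrp2 belongs to a family of LIM domain proteins found on actin bundles.

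The unit of level used here is CPM, the read count of a gene scaled to a common library total with TMM factors, taken over the genes of the table. Of its 2398 genes, 2226 were matched to an annotation, all on chromosomes 1 and 10 (the second up to 111.3 Mb), and totals per biological replicate ranged from 3694551 to 6093336 counts, so CPM values refer to this set of genes and not to the whole transcriptome. The 2 libraries of a replicate were summed, giving n = 3 for each genotype, since their counts had a chi-square per degree of freedom of only 1.00 to 1.06. Lmna and Cnp are not analysed here, so the cutting of Lmna was not checked. Of 24 markers of myelinating oligodendrocytes, 2 lay in the table, the protease gene Adamts4 and the adhesion gene Nfasc. Their summed level was 14783 to 17097 CPM in KO and 10321 to 11902 CPM in WT, without overlap. Each of the 2 genes on its own was also higher in every KO replicate than in every WT replicate. KO and WT replicates did not overlap, in either direction, in 8.49% of all genes tested. The log2 fold change, KO over WT, was 0.51 ± 0.11 (SE) for Adamts4 and 0.43 ± 0.14 for Nfasc. Their unadjusted p in edgeR was 0.00117 and 0.0132. Neither marker was called by edgeR (adjusted p of 0.504 for Adamts4 and 0.927 for Nfasc), which called 0% of all genes. DESeq2 called 0.473% of all genes, and its result for these 2 markers is not given here.

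Start-site sequences are shown for Arpc2, Arpc5 and Actr3, the 3 genes of the Arp2/3 complex that lie in the table and the most abundant of the 9, and for Enah, the single gene whose KO and WT replicates did not overlap. Each sequence runs 5′ to 3′ on the strand of the gene, from 250 bases before to 50 bases after the start of the transcript, and comes from RefSeq on GRCm38.p6, where 6 of the 9 genes had an entry. Capitals mark matches on either strand to GGGCGG (the GC box), CCAAT (the CCAAT box), TATAAA (the TATA box), CGGAAG (the core of ETS sites), GCGCATGC (a core of NRF1 sites) or the CArG box of SRF, and adjoining or overlapping matches run together. The Arpc2 sequence lies at chr1:74236267-74236566 on the plus strand, the Arpc5 sequence at chr1:152766292-152766591 on the plus strand, the Actr3 sequence at chr1:125435678-125435977 on the minus strand and the Enah sequence at chr1:182019931-182020230 on the minus strand. The Enah window lies inside the locus given for that gene further on, whose outermost start is another one.
Arpc2: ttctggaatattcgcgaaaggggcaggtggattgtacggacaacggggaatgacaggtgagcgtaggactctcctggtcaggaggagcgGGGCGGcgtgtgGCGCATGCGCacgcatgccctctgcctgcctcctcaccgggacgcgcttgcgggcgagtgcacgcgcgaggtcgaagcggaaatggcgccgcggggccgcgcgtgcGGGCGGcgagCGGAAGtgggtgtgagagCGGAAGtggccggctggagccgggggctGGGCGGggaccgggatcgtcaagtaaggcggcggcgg
Arpc5: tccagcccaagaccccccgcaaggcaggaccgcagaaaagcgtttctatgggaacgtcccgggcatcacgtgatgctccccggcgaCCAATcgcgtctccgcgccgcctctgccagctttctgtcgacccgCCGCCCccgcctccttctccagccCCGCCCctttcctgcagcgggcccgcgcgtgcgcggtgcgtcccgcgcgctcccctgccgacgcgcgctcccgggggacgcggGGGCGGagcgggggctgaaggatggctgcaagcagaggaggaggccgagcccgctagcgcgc
Actr3: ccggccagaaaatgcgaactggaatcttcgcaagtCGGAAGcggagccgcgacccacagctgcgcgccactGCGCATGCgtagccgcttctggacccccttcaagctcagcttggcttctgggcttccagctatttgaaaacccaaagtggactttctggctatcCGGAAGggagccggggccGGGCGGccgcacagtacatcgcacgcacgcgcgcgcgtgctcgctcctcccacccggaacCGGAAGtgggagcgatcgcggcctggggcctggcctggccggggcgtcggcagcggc
Enah: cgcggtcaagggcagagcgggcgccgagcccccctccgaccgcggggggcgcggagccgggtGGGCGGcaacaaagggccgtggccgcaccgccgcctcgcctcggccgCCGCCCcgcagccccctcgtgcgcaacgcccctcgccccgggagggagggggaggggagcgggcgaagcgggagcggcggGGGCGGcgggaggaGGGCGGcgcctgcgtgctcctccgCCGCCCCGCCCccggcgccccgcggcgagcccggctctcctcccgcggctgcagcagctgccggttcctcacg
The GC content of these windows was 70.0% for Arpc2, 73.7% for Arpc5, 67.3% for Actr3 and 83.3% for Enah, against a median of 52.7% over the 32851 windows of the same length in the RefSeq table. A GC box was present in all 4, and in 35.7% of all windows. The NRF1 core was matched in Arpc2, at 2 places that overlap on opposite strands, and in Actr3, and it occurred in 2.71% of all windows. The ETS core was matched 2 times in Arpc2 and 3 times in Actr3 and in 16.9% of all windows, and the CCAAT box was matched in Arpc5 and in 37.4% of all windows. Neither the TATA box, held by 13.6% of all windows, nor the CArG box, held by 1.63%, was matched in any of the 4. A match is a string of letters and no evidence that a factor binds.

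Per length of transcript, the 9 genes fell into an abundant and a scarce set. Levels between genes are compared as CPM per kb of the longest annotated transcript, and the mean over the 6 replicates of the most abundant gene was 829 times that of the scarcest. Arpc5 led with 1604 ± 118 CPM per kb (SD, n = 6 replicates of both genotypes), a level above that of 96.6% of the 1402 tested genes with a known length. Arpc2 followed with 1030 ± 97.0 CPM per kb, Actr3 with 749 ± 101 CPM per kb, Wasf1 with 253 ± 33.9 CPM per kb and Abi2 with 183 ± 19.2 CPM per kb. These 5 genes are the ones of the Arp2/3 and WAVE complexes that could be measured, 3 of the 11 genes in the Arp2/3 list and 2 of the 11 in the WAVE list. The scarce set followed with Csrp2 at 27.4 ± 14.1 CPM per kb, Marcks at 16.1 ± 11.2 CPM per kb, Raph1 at 3.102 ± 0.481 CPM per kb and Enah at 1.93 ± 0.399 CPM per kb.

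**Figure D1:**
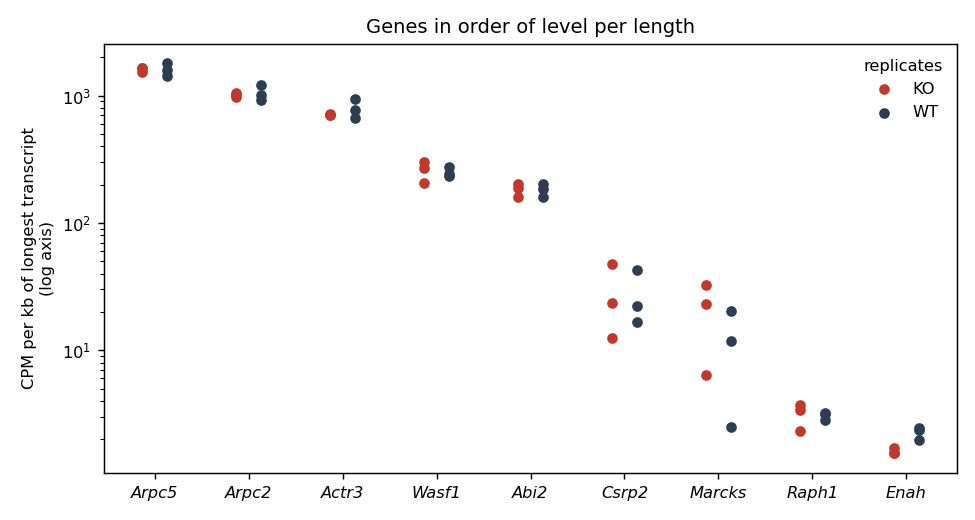
Level of each of the 9 genes in CPM per kb of the longest transcript, on a log axis, with 1 point per replicate (KO left, WT right). Every point of Arpc5, Arpc2, Actr3, Wasf1 and Abi2 lies above 159 CPM per kb, and every point of Csrp2, Marcks, Raph1 and Enah lies at or below 47.1 CPM per kb.

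Neighbours in this order were separated to different degrees. The 6 replicates of Arpc5 lay between 1434 and 1785 CPM per kb and did not overlap those of Arpc2, between 929.9 and 1210.3 CPM per kb. Arpc2 and Actr3 overlapped, although Arpc2 was the higher of the pair in 6 of 6 replicates. Actr3, Wasf1 and Abi2 did not overlap one another, with only a narrow gap between the lowest Wasf1 replicate at 204 CPM per kb and the highest Abi2 replicate at 202 CPM per kb. Among Csrp2, Marcks, Raph1 and Enah each gene overlapped the next. With the merged exons of a gene as its length, the order of the 9 genes was the same, and Arpc2 at 658 to 857 CPM per kb no longer overlapped Actr3 at 367 to 522 CPM per kb, nor did Marcks overlap Raph1.

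In the comparison of KO with WT, which asks whether these transcripts differ between the genotypes, none of the 9 genes was called. With p-values of the quasi-likelihood test in edgeR, adjusted by Benjamini-Hochberg over 1484 genes, 0 of the 9 genes had an adjusted p under 0.05, and 0% of all genes were called. The adjusted p lay between 0.994 and 0.996 for the 9 genes. DESeq2 called 0 of the 9 and 0.473% of all genes, and limma-voom called 0 of the 9. At an unadjusted p under 0.05 edgeR had 0 of the 9 genes and 59 of all genes. The log2 fold change, KO over WT, was above 0 for 6 of the 9 genes and below 0 for 3, with a median of 0.0066, against -0.0064 over all genes tested. Signs so close to 0 were not stable, and 6 of the 9 genes changed sign when 1 replicate was left out. All 9 genes passed the filter on low counts, though Enah, Raph1, Marcks and Csrp2 rested on as few as 62, 81, 41 and 83 counts in their lowest replicate.

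**Figure D2:**
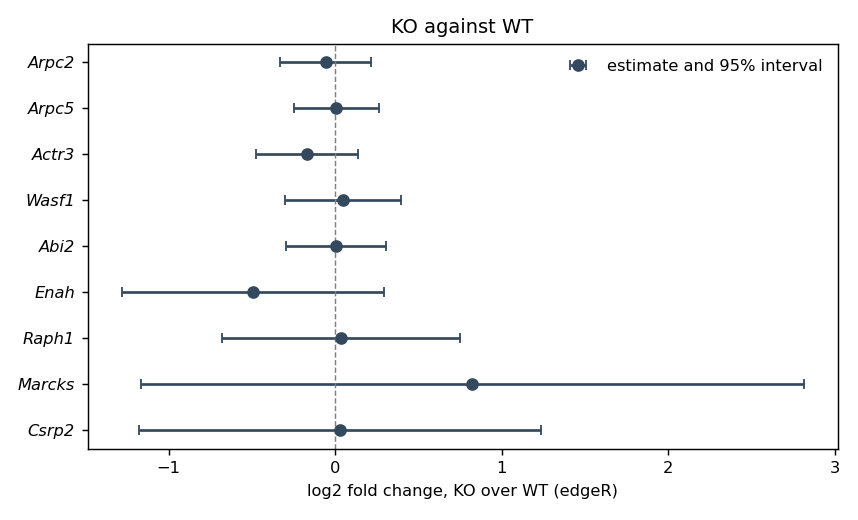
The log2 fold change of each gene, KO over WT, from edgeR (point) with its 95% interval (bar); the dashed line marks no change. All 9 intervals include 0, and they are narrow for Arpc2, Arpc5, Actr3, Wasf1 and Abi2 and widest for Marcks, from -1.17 to 2.81.

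Arpc2, Arpc5 and Actr3 encode subunits of the branching complex itself. Arpc2 is a large structural subunit at its core, Arpc5 is its smallest type of subunit, and Actr3 encodes Arp3, an actin-like protein that helps to form the base of the new branch. Arpc2 (chromosome 1 from 74236490 to 74268209, GRCm38) stood at 1449, 1507 and 1399 CPM in KO replicates 1 to 3 and at 1454, 1742 and 1338 CPM in WT replicates 1 to 3. The KO replicates lay within the span of the WT replicates, and the log2 fold change was -0.06 ± 0.12 (SE). Arpc5 (chromosome 1 from 152766542 to 152775580) stood at 2948, 3142 and 3140.1 CPM in KO and at 3027, 3417 and 2744 CPM in WT. Here too the KO values lay inside the WT span, with a log2 fold change of 0.0066 ± 0.11 and a 95% interval from -0.25 to 0.26.

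Actr3 (chromosome 1 from 125392905 to 125435727) stood at 1824, 1799 and 1803 CPM in KO and at 2417, 1982 and 1700.2 CPM in WT. The 3 KO replicates were nearly equal, and WT replicate 1 stood above the other 5 replicates. Its log2 fold change was -0.17 ± 0.13, and without WT replicate 1 it was -0.03 ± 0.11. Without WT replicate 3, the lowest of its group, it was -0.27 ± 0.11, with an edgeR adjusted p of 0.921, the lowest among its alternatives.

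The counts of Arpc2 and Arpc5 kept a steady ratio, which needs no scaling between libraries. Arpc2 had 0.492, 0.480 and 0.446 counts per count of Arpc5 in the KO replicates and 0.480, 0.510 and 0.488 in the WT replicates, a coefficient of variation of 4.37% over the 6. Actr3 had 0.619, 0.573 and 0.574 counts per count of Arpc5 in the KO replicates and 0.798, 0.580 and 0.620 in the WT replicates, so that WT replicate 1 again stood apart. Across the 6 replicates the log2 CPM profiles of Arpc2 and Arpc5, each centred on its mean, differed by a root mean square of 0.058, the smallest of the 36 pairs among the 9 genes. Such closeness was not limited to the complex. Among the 959 other tested genes with at least 50 CPM, the profile nearest to Arpc2 was that of Hdac2, a histone deacetylase, at a root mean square of 0.041, the nearest to Arpc5 was Vta1, an endosomal sorting gene, at 0.043, and the nearest to Actr3 was Pgap1, which remodels lipid anchors of proteins, at 0.037.

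Wasf1 and Abi2 encode parts of the WAVE complex. Wasf1 encodes WAVE1, which carries the segment that activates the Arp2/3 complex, and Abi2 encodes an Abl interactor that holds the complex together. Wasf1 (chromosome 10 from 40883480 to 40938569) stood at 555, 731 and 814 CPM in KO and at 656, 742 and 633 CPM in WT. KO replicates 1 and 3 were the lowest and the highest of all 6, so the groups overlapped throughout, with a log2 fold change of 0.05 ± 0.15 (95% interval from -0.30 to 0.40). Abi2 (chromosome 1 from 60405768 to 60481945) stood at 919, 1082 and 1165 CPM in KO and at 1072, 923 and 1167 CPM in WT. Its group means were 1055 ± 125 CPM in KO and 1054 ± 123 CPM in WT (SD, n = 3 each), and its log2 fold change was 0.0015 ± 0.13. The ratio of Wasf1 to Abi2 counts ranged from 0.604 to 0.699 in KO and from 0.543 to 0.804 in WT.

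**Figure D3:**
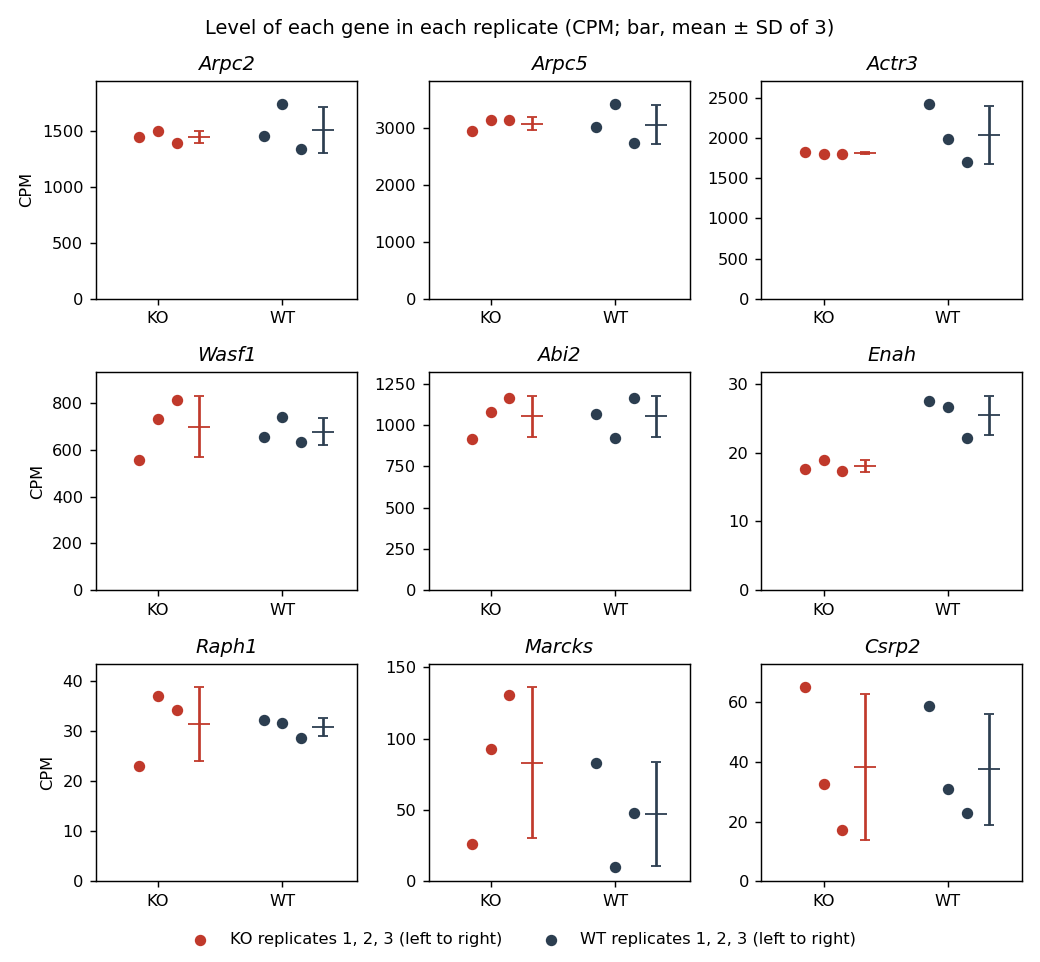
CPM of each gene in KO replicates 1 to 3 (left) and WT replicates 1 to 3 (right), on linear axes from 0, with the mean and SD of 3 replicates beside them. Enah is the single gene whose groups do not overlap, at 17.4 to 19.0 CPM in KO and 22.1 to 27.6 CPM in WT.

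For these 5 abundant genes the data set a limit on any difference. Their 95% intervals all lay within 0.5 log2 units of no change, as did those of 37.7% of all genes tested. The widest of these intervals on the lower side was that of Actr3, which allows a level in KO of 0.720 to 1.099 times that in WT. On the upper side it was that of Wasf1, which allows 0.812 to 1.31 times. A missed threshold does not show that the levels were equal.

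Enah and Raph1 act at the growing ends. Enah encodes Mena, an Ena/VASP protein that keeps capping proteins off filament ends, and Raph1 encodes lamellipodin, which binds phosphoinositides and recruits Ena/VASP proteins. Enah (chromosome 1 from 181896384 to 182027556) stood at 17.7, 19.0 and 17.4 CPM in KO and at 27.6, 26.6 and 22.1 CPM in WT. Every KO replicate lay below every WT replicate, and Enah was the single member of the 9 whose groups did not overlap. The groups did not overlap in 8.49% of all genes tested, and they did so with KO lower in 4.04%. The log2 fold change was -0.50 ± 0.35 (SE, 95% interval from -1.28 to 0.29), with an edgeR adjusted p of 0.994, a DESeq2 adjusted p of 0.994 and a limma-voom adjusted p of 0.999. It lay between -0.58 and -0.44 when each replicate was left out in turn. These levels rested on 62, 120 and 84 counts in KO and 145, 107 and 123 counts in WT, and an exact permutation test of 3 against 3 cannot give a two-sided p under 0.1. Enah shares 190 bases of its RefSeq locus with Gm51706, and 4 further genes of GENCODE M21 overlap it on the same strand. Their reads could not be set apart here.

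Raph1 (chromosome 1 from 60471180 to 60567074) stood at 23.1, 37.0 and 34.1 CPM in KO and at 32.1, 31.5 and 28.6 CPM in WT. KO replicate 1 was the lowest and KO replicate 2 the highest of the 6, and the log2 fold change was 0.03 ± 0.32. The RefSeq locus of Raph1 overlaps that of the pseudogene Gm11575, and it overlaps that of Abi2 by 10766 bases. The sources used here do not say whether strand was used in counting, so reads from that overlap cannot be assigned with certainty. The low level of Raph1 beside its abundant neighbour Abi2 is uncertain to that extent. Reads from the same overlap bear on the level of Abi2, its narrow gap below Wasf1 and the ratio of Wasf1 to Abi2. Enah had 0.765, 0.513 and 0.509 counts per count of Raph1 in the KO replicates and 0.858, 0.843 and 0.774 in the WT replicates. The value of 0.765 came from 62 counts of Enah and 81 of Raph1. The uncertainty about Raph1 enters this ratio too.

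Marcks and Csrp2 varied far more between replicates than the other 7 genes. Marcks (chromosome 10 from 37133243 to 37138926), a substrate of protein kinase C that loosens from the membrane when phosphorylated, stood at 25.9, 92.8 and 131 CPM in KO and at 82.7, 10.2 and 48.1 CPM in WT. Its highest replicate, KO replicate 3, was 12.8 times its lowest, WT replicate 2. Within KO alone the span was 5.05-fold and within WT alone 8.12-fold. Its log2 fold change was 0.82 ± 0.83, with a 95% interval that allows a level in KO of 0.446 to 7.02 times that in WT. It was 0.34 without KO replicate 3, 0.37 without WT replicate 2 and 1.504 without WT replicate 1.

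Csrp2 (chromosome 10 from 110920176 to 110939514) encodes the LIM domain protein CRP2, best known from smooth muscle. It stood at 65.2, 32.8 and 17.2 CPM in KO and at 58.7, 30.8 and 23.0 CPM in WT. KO replicates 3 and 1 were the lowest and the highest of all 6, a span of 3.80-fold, and the WT replicates lay between them with a span of 2.55-fold. Its log2 fold change of 0.03 ± 0.53 had no stable sign, at -0.59 without KO replicate 1, -0.08 without WT replicate 2 and -0.22 without WT replicate 3. Its paralogue Csrp1 was of another order, at 23668 ± 3571 CPM in KO and 23101 ± 1633 CPM in WT (SD, n = 3 each). Counts of Csrp1 were 424, 633 and 1315 times those of Csrp2 in the KO replicates and 397, 800 and 928 times in the WT replicates. Reads that fit both paralogues would change the scarce Csrp2 most, and the sources used here do not say how such reads were counted.

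**Figure D4:**
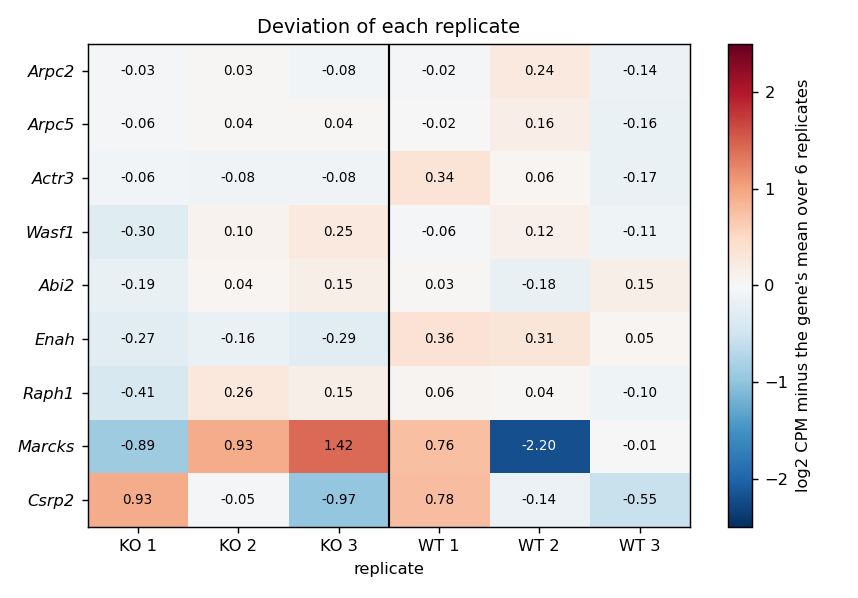
Deviation of log2 CPM in each replicate from the mean of the gene over 6 replicates, KO left of the black line and WT right of it. Deviations stay within 0.41 log2 units for all genes but Marcks, from -2.20 to 1.42, and Csrp2, from -0.97 to 0.93.

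Marker genes of other cell types differed between the same replicates. The progenitor list had 2 of 12 markers in the table, the matrix gene Tnr and the sialidase gene Neu4, and their summed level was 12.2, 95.6 and 60.6 CPM in KO replicates 1 to 3 and 35.2, 0.497 and 36.6 CPM in WT replicates 1 to 3. The replicates with the lowest 2 sums, WT replicate 2 and KO replicate 1, were also the 2 with the least Marcks. The sum was highest in KO replicate 2, whereas Marcks was highest in KO replicate 3. Neu4 was at 0 in WT replicate 2, so the sum of 0.497 CPM there came from Tnr alone and lay near the floor. The astrocyte list, as used here, had 2 of 14 markers in the table, Gja1 and Gpr37l1, with a sum of 924, 628 and 435 CPM in KO and 661, 352 and 271 CPM in WT. The 3 replicates with the most Csrp2, KO replicate 1, WT replicate 1 and KO replicate 2, were also the 3 with the highest astrocyte sums. The same 3 had the highest sums of microglia and macrophage markers, at 203, 158 and 361 CPM, so the match was not particular to astrocytes. The single astrocyte markers were ordered otherwise. Gja1 stood at 737, 186 and 158 CPM in KO and at 372, 294 and 92.7 CPM in WT, and Gpr37l1 was highest in KO replicate 2. The part of these cells in the levels of Marcks and Csrp2 was not tested, and in such bulk samples fewer cells of a type and less RNA per cell cannot be told apart.

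**Figure D5:**
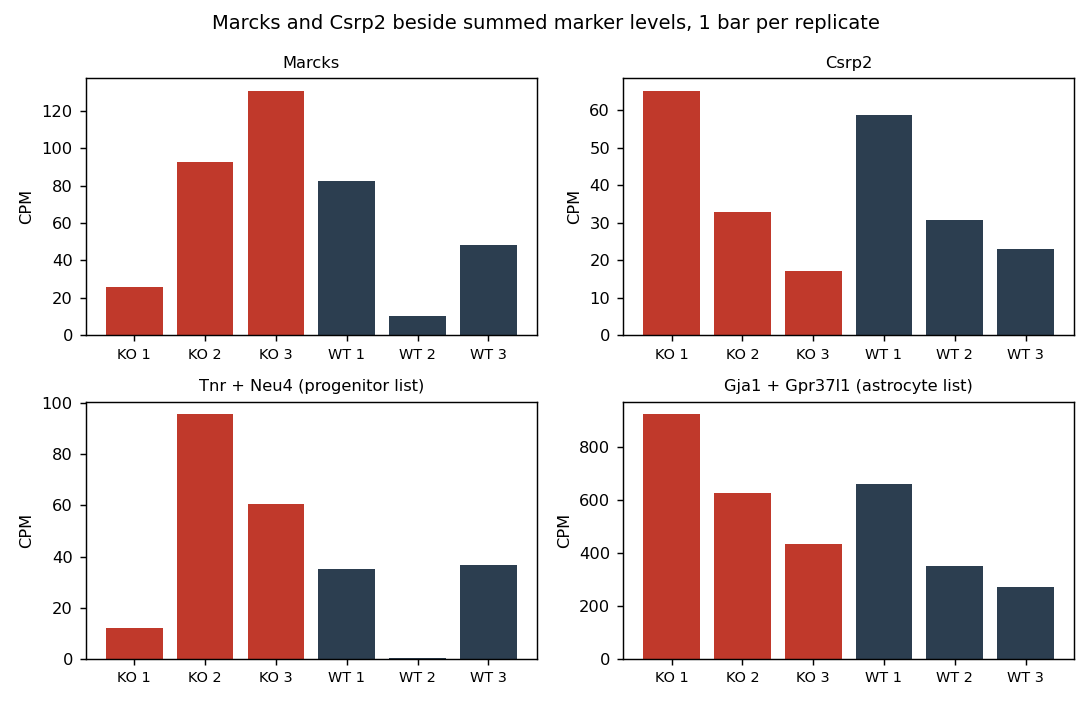
CPM of Marcks above the summed progenitor markers (left) and of Csrp2 above the summed astrocyte markers (right), 1 bar per replicate, KO first. The pairing of each gene with a marker list followed no rule set in advance, and the other lists are not drawn. Marcks and the progenitor sum are both lowest in WT replicate 2, at 10.2 and 0.497 CPM, where the sum lies near the floor. The progenitor sum is highest in KO replicate 2 and Marcks in KO replicate 3. Csrp2 and the astrocyte sum are both highest in KO replicate 1, at 65.2 and 924 CPM. Csrp2 is lowest in KO replicate 3, at 17.2 CPM, and the astrocyte sum in WT replicate 3, at 271 CPM.

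By profile over the 6 replicates, the gene nearest to Marcks was Gpr37l1, one of the astrocyte markers, at a root mean square of 0.56 log2 units. Gpr37l1 stood at 187, 442 and 277 CPM in KO and at 289, 58.6 and 179 CPM in WT. The nearest to Csrp2 was Ramp1, which encodes a receptor activity-modifying protein, at 0.24, with 120.2, 63.2 and 38.5 CPM in KO and 120.1, 76.0 and 33.1 CPM in WT. The remaining nearest genes were Parp1 for Wasf1 at 0.067, Rexo1 for Abi2 at 0.053, Klhdc9 for Enah at 0.079 and Anks1b for Raph1 at 0.060. Each is the closest of about 960 genes over only 6 replicates, and nothing about function follows from it.

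The other marker lists were as follows. The microglia and macrophage list had 5 of 20 markers in the table and summed to 77.6 to 361 CPM in KO and 80.5 to 158 CPM in WT, led by Fcer1g and Fcgr3. Mural and fibroblast markers had 8 of 18 in the table, led by Col6a2 and Lamc1. Their sum was 1741 to 1846 CPM in KO, above the 1456 to 1483 CPM in WT in every replicate. Among all genes tested, taken singly, KO and WT replicates did not overlap, in either direction, in 8.49%. The leading markers on their own overlapped between the genotypes, Col6a2 at 397 to 846 CPM in KO and 434 to 711 CPM in WT and Lamc1 at 461 to 781 CPM in KO and 412 to 654 CPM in WT. Neuronal markers, Syt1 and Scg2 of a list of 15, summed to 10.5 to 46.9 CPM in KO and 7.03 to 247 CPM in WT, and Kcnj13, the 1 marker of the choroid plexus list in the table, to 1.58 to 16.2 CPM in KO and 4.97 to 131 CPM in WT. Of 14 endothelial markers, 0 lay in the table. Their part in any level given here was not tested.

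No other gene of actin control was called. Of 311 such genes in the lists, 30 lay in the table and 27 were tested, and 0 of the 27 were called by edgeR, by DESeq2 or by limma-voom, with 3 at an unadjusted p under 0.05 in edgeR, beside 59 of the 1484 genes tested. Log2 fold changes were above 0 for 14 and below 0 for 13, with a median of 0.011. KO and WT replicates were apart in 2 of the 27, beside 8.49% of all genes tested. Those 2 were Washc3, a WASH complex gene, at 229 ± 17.8 CPM in KO and 265 ± 26.9 CPM in WT, and Tagln2, an actin-bundling gene of the transgelin family.

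Tagln2 stood at 45.0, 118 and 43.7 CPM in KO and at 38.6, 29.6 and 13.7 CPM in WT, with an edgeR adjusted p of 0.969. Its highest level was in KO replicate 2, which also had the highest sum of microglia and macrophage markers, 361 CPM. That replicate had the highest sums of progenitor markers (95.6 CPM) and of mural and fibroblast markers (1846 CPM) as well. The part of these cells in the level of Tagln2 was not tested. Cnn2, a calponin, and Prex2, an exchange factor for Rac, were the other 2 at an unadjusted p under 0.05. Cnn2 stood at 47.3, 62.2 and 24.6 CPM in KO and at 19.95, 24.8 and 17.1 CPM in WT, again highest in KO replicate 2. Prex2 stood at 41.9, 35.6 and 41.8 CPM in KO and at 65.0, 41.7 and 87.7 CPM in WT. Washc3, Cnn2 and Prex2 were singled out after their values were seen.

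The most abundant tested genes of each list, ranked per kb, had overlapping KO and WT replicates apart from Tagln2. Among other activators of the Arp2/3 complex, Washc4 of the WASH complex stood at 1230 ± 132 CPM in KO and 1290 ± 119 CPM in WT, and the adaptor gene Nck2 at 399 ± 4.90 CPM in KO and 380.1 ± 27.5 CPM in WT (SD, n = 3 each). Dock10, an exchange factor for small GTPases, stood at 4848 ± 428 CPM in KO and 4713 ± 718 CPM in WT, and Plekhg1, another, at 1169 ± 98.7 CPM in KO and 1062 ± 151 CPM in WT. Dst, a cytolinker between actin and other filaments, stood at 1897 ± 75.2 CPM in KO and 1882 ± 297 CPM in WT. Lims1, a LIM protein of focal adhesions, stood at 1205 ± 47.0 CPM in KO and 1305 ± 71.6 CPM in WT. Ppp1r12a and Ppp1r12b, targeting subunits of myosin phosphatase, stood at 420.2 ± 24.9 and 84.0 ± 9.004 CPM in KO and at 436 ± 41.4 and 91.2 ± 28.7 CPM in WT.

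The 2 genes of the list of formins and other nucleators were scarce. Fmn2, a formin, stood at 21.4 ± 6.72 CPM in KO and 17.8 ± 4.23 CPM in WT, and Lmod1, a leiomodin, at 12.8 ± 0.363 CPM in KO and 18.7 ± 6.49 CPM in WT (SD, n = 3 each). Per kb of transcript they averaged 3.04 CPM for Fmn2 and 3.99 CPM for Lmod1 over the 6 replicates, near the 3.102 CPM per kb of Raph1. Actin genes and the list of filament capping had 0 members in the table, and the list of cofilin and severing had 0 tested.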

How the data were processed

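The values are the authors' deposited read counts, not normalized, per gene and library. The submitters' processing notes name HISAT2, featureCounts, fastp and SAMtools 1.4.1, and the build mm10; parameters, annotation and strand were not found there. The table's 1 incomplete line was left out. Identifiers were matched through the RefSeq table of GRCm38 (2226 of 2398), and lengths come from GENCODE M21. The 2 libraries of a replicate were summed, and 3 KO were compared with 3 WT replicates in edgeR 4.0.16 (TMM, filterByExpr, robust quasi-likelihood, Benjamini-Hochberg over 1484 genes). DESeq2 1.42.0 and limma-voom 3.58.1 were alternatives. SE is the log2 fold change over the square root of F. Profiles used log2(CPM + 0.5). P-values set the difference between the groups against the spread between these biological replicates. Replicate totals were 3694551 to 6093336 counts. The precision of a fold change rested on the spread between replicates as well as on the counts. The fits were tested on simulated counts. Members and lists were chosen with earlier results of these data known. One marker gene is not reported here and was left out of its list. Named genes were the members, the 2 most abundant tested genes per kb of each other list where 0 were called, the nearest profile of each member and the 2 leading markers of each list.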

Additional observations from a re-analysis of the deposited data

How the results depend on the processing

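The 9 genes kept 0 calls, and the other actin genes tested 0 calls, under other size factors, other filters, DESeq2, limma-voom, the replicate block, either library alone and without each replicate. Over all genes 0 calls became 7 with DESeq2 (the cause was not tested) and stayed 0 in the other alternatives. The median log2 fold change of the 9 genes lay between 0.0012 and 0.029 under the alternatives on all replicates and between -0.059 and 0.063 without each replicate. Of 135 fold changes of single genes under alternatives, 116 kept their sign and 19 changed it. On all replicates the sign changed for Raph1 with the second library alone (-0.023) and for Csrp2 with limma-voom (-0.15), the replicate block (-0.057) and the first library alone (-0.066), and the cause was not tested. Without each replicate in turn the range crossed 0 for Arpc2 (-0.13 to 0.066), Arpc5 (-0.059 to 0.10), Wasf1 (-0.077 to 0.19), Abi2 (-0.078 to 0.091), Raph1 (-0.096 to 0.21) and Csrp2 (-0.59 to 0.51), and did not for Actr3, Enah and Marcks. The order of the 9 genes by level per kb was the same in every alternative that changes levels or length. Deviations of replicates with the same number correlated at -0.0032, -0.30 and 0.14 across genes, and not every replicate correlated best with its own number, so the numbers were not taken to pair the samples. The 4 scarce genes had 41 to 632 counts per replicate and SE of 0.32 to 0.83 log2 units. The 5 abundant genes had SE of 0.11 to 0.15. Among the 4 scarce genes the largest SE was that of Marcks, which had the most counts, 2052 over all replicates.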
